A study of Mus musculus with 12 samples.

Results

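Pax2, Tbx5 and Nkx2-2 encode transcription factors that pattern the embryo, and their loci were followed here in the methylome of blood progenitors with a mutant Dnmt1. The regions described are those in the authors' list of hypomethylated regions that the list assigned to 1 of these 3 genes at a distance of at most 5000 bp from the gene, together with every tabulated region lying between the first and the last of them. This gave 15 of 107115 candidate regions, 10 at Pax2, 4 at Tbx5 and 1 at Nkx2-2. Of these, 13 were in the list and 2, both at Pax2, were not. The list was drawn from the difference between mutant and wild type in these same samples, so the 13 regions were chosen by their difference in level between the groups, and those differences, with the calls printed beside them, are given as a description and support nothing.

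The samples were whole-genome methylation libraries of lin- bone marrow progenitors, which are marrow cells depleted of mature lineages, from BALB/c mice. The wild-type group had the genotype wt, and the mutant group was labelled dnmt1-/-, whereas the series speaks of a specific mutation built after hypomorphic fish alleles. Each group had 6 samples, a bisulfite (TruSeqMeth) and an enzymatic (EMSeq) library for each of 3 replicate numbers, but the deposited table has 1 column for each number, so n = 3 per group. Whether a column merges both libraries or holds 1 kit alone is not stated, so the kits cannot be told apart. Nothing in the labels says that replicates came from separate animals, the labelled cell type could not be checked against marker expression in a methylation table, and no read coverage accompanied the levels, so the depth is unknown. Over all 35439 listed regions the mean level was 48.4% ± 2.31 in mutant and 76.8% ± 0.334 in wild-type cells (mean ± SD of 3).

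As background, Dnmt1 copies methylation of CpG dinucleotides onto the daughter strand after replication, and a weak enzyme lets methylation decline as cells divide. Pax2 carries a paired domain and is needed for kidney, eye and inner ear, Tbx5 carries a T-box and is needed for heart and forelimb, and Nkx2-2 carries a homeodomain and acts in the ventral neural tube and in pancreatic islets. In tissues that do not use such genes, their CpG-rich starts are usually free of methylation and held by Polycomb proteins, while the DNA farther along the gene is methylated.

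The tabulated regions were therefore set beside promoter sequences of RefSeq (build GRCm38.p6). The promoter table, which holds a window of fixed length around each start, matched Pax2 with 3 starts and Nkx2-2 with 1. Tbx5 had no entry in it, so the promoter of Tbx5 itself was not compared. No candidate region overlapped any of these 4 windows, and the nearest one lay 2011 bp away at Pax2 and 6943 bp away at Nkx2-2. The windows of Nkx2-2os and 6430503K07Rik, and the Gm5563 window at chr5:119831937-119832236, overlapped none either. Promoters of 2 long noncoding RNA genes did fall in tabulated regions, 1700039E22Rik in one of the unlisted Pax2 regions and Gm5563, at its other start, in a region of low level inside Tbx5. The 4 sequences below are these 2 windows, shown because a tabulated region contains each, and 1 start of Pax2 and of Nkx2-2, shown for the genes themselves. For Pax2 the start nearest the first listed region was taken. They run 5′ to 3′ on the strand of the gene, with each CG dinucleotide in capitals.
1700039E22Rik (chr19:44835889-44836188, minus strand): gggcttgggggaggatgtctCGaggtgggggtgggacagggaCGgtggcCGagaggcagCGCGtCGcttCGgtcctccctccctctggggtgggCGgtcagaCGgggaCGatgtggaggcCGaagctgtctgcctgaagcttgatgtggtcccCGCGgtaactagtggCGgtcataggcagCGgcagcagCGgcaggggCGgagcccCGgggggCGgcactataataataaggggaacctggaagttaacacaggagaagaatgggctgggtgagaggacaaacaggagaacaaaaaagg
Gm5563 (chr5:119807607-119807906, minus strand): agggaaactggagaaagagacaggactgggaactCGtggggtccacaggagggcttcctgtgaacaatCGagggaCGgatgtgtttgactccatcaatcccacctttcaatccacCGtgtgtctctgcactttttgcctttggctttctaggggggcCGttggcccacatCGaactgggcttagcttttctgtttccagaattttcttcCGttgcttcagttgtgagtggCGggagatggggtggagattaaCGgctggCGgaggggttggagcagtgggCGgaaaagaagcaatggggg
Pax2 (chr19:44756656-44756955, plus strand): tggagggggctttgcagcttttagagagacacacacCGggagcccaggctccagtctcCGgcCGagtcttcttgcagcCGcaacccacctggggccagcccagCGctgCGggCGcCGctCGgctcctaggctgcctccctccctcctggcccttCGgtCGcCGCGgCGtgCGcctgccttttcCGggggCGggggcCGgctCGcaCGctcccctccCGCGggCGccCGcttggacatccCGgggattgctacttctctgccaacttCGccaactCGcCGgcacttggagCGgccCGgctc
Nkx2-2 (chr2:147186353-147186652, minus strand): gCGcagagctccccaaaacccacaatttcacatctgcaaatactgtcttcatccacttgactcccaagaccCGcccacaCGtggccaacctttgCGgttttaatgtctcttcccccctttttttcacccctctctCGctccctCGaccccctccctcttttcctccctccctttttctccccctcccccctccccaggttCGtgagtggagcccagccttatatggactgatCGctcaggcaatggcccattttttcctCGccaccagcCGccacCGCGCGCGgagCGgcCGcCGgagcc

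The printed Pax2 window, the one with the most CG dinucleotides at this gene, held 30, more than 88.3% of the 32851 promoters in the table. The other Pax2 windows held 7 and 23. The one with 7 (chr19:44746351-44746650) covers the start of the RefSeq span and holds no GGGCGG. The 1700039E22Rik window held 19, the Nkx2-2 window 17 and the Gm5563 window 11, against a median of 7 over all promoters. The letters GGGCGG, the core that Sp1 binds, occurred on either strand in each of the 4 printed windows, and in 35.7% of all promoters. The E-box CACGTG occurred in the Nkx2-2 window alone among the 4, and in 7.15% of all promoters. AAGTGG, a core bound by Nkx2 proteins, also occurred there and in none of the other 3, and was found in 16.9% of all promoters. The T-box core GGTGTGA, held by 3.98% of all promoters, occurred in none of the 4. The same was true of the TATA box motif TATAAA, which 13.6% of all promoters held, and of the CCAAT box, which 37.4% held. These are matches of letters in the windows and say nothing of binding.

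Inside Pax2, a paired-box gene on chromosome 19 (RefSeq span 44746601 to 44838269, plus strand), methylation in the wild type was either high or low, and the large differences were found in the highly methylated stretches. This pairing is partly fixed in advance. Listed regions lost at least 20 points, so none could be under 20% in the wild type. The 7 listed regions inside the span lay 17.9 to 71.1 kb from the gene start, counted for each gene from the start of its RefSeq span. They had wild-type means from 72.2% to 92.0% and mutant means from 32.2% to 65.5%. The eighth lay 4755 bp beyond the gene's end in the authors' annotation and 4356 bp beyond it in RefSeq. Averaged over all 8, the level was 49.5% ± 1.26 in mutant and 83.2% ± 0.377 in wild-type cells (mean ± SD of 3), a difference of -33.6 points. Mutant replicates averaged 49.6%, 50.7% and 48.2%, and wild-type replicates 82.8%, 83.5% and 83.1%. The mutant mean was 59.5% of the wild-type mean. In such bulk samples, a shift in the mix of cells and a change within cells cannot be told apart.

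The largest loss at Pax2 was in region 5, counting the 10 regions by coordinate (chr19:44799455-44799775, mm10, 10 CpGs). Its wild-type replicates had levels of 77.0%, 78.2% and 76.2%, and its mutant replicates 31.3%, 33.4% and 37.2%, a difference of -43.1 points. All wild-type values sat close together and far above the mutant values. Region 6 (chr19:44813169-44814094, 12 CpGs) had 70.3%, 75.1% and 71.2% in the wild type and 26.4%, 37.4% and 33.0% in the mutant, a difference of -39.9 points. Region 1, the listed region nearest the gene start (chr19:44763779-44765309), was the one with the most CpGs among the members, 20, and had 82.2%, 82.6% and 85.9% in the wild type and 45.2%, 42.6% and 49.7% in the mutant, a difference of -37.8 points. Region 7 (chr19:44815760-44816187) differed by -33.3 points. It was the member whose mutant replicates lay farthest apart, at 51.3%, 49.9% and 36.7%, with replicate 3 alone low, while the wild-type replicates had 78.2%, 79.6% and 79.9%.

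The smallest losses among the listed Pax2 regions were in regions 2 and 3, which were also the most methylated. Region 2 (chr19:44771313-44771773, 13 CpGs) had 90.9%, 95.0% and 90.2% in the wild type and 65.8%, 64.6% and 66.0% in the mutant, a difference of -26.6 points. Its mutant SD of 0.774 points was exceeded by 97.5% of all listed regions. Region 3 (chr19:44778758-44779511), which the list also assigned to Gm20395, had 89.2%, 90.3% and 88.0% in the wild type and 64.7%, 62.1% and 59.9% in the mutant, a difference of -26.9 points. Regions 8 and 10 differed by -31.9 and -29.7 points. Whether any of these regions is exonic or intronic was not assigned, since the gene table used here gives spans without exons.

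Between these methylated stretches lay the 2 unlisted Pax2 regions. Region 4 (chr19:44790563-44791010) had 17.0%, 26.7% and 19.5% in the wild type and 9.27%, 5.36% and 7.73% in the mutant, so both groups were low and did not overlap, as in 94.3% of all candidate regions. Region 9 (chr19:44835817-44836386), near the 3′ end of Pax2, contains the whole 1700039E22Rik window printed above. It was almost free of methylation in both groups, at 2.67%, 1.67% and 2% in the wild type and 0%, 0.333% and 1.56% in the mutant, a difference of -1.48 points on a wild-type mean of 2.11%. The listed region 8, with a wild-type mean of 84.2%, ended 17267 bp before it, and region 10, with 87.7%, began 6239 bp after it.

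**Figure D1:**
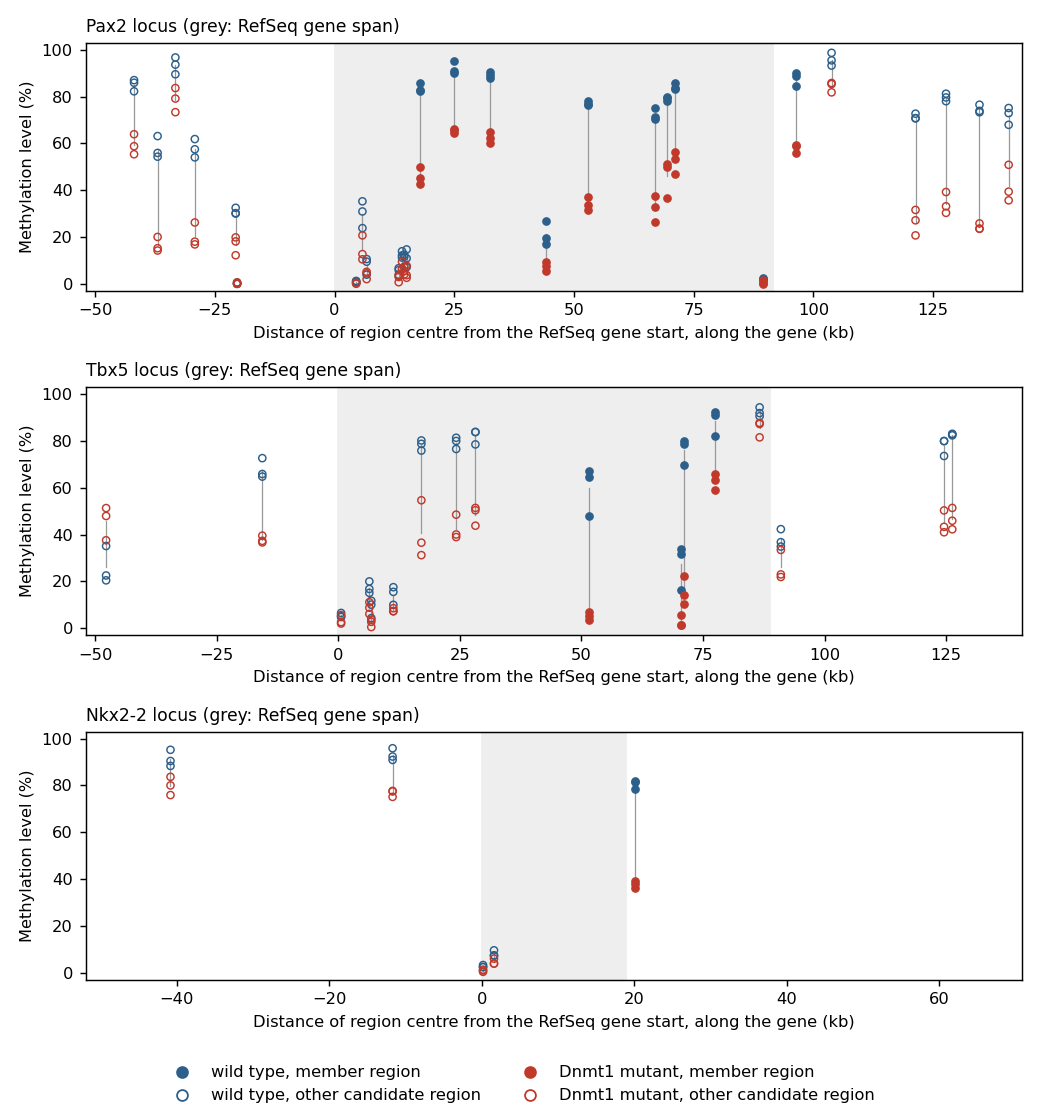
Methylation level (vertical axis, %) of every candidate region within 50 kb of the RefSeq span of Pax2, Tbx5 and Nkx2-2, by distance of its centre from the gene start (horizontal axis, kb). Each circle is 1 of 3 replicates (blue wild type, red Dnmt1 mutant), filled for the 15 regions described and open for the others, and grey lines join the group means. The first regions inside each gene are low in both groups, with wild-type means of at most 29.96%. The widest gaps between blue and red lie farther along the gene or outside it.

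The same layout, with the same limit, held over the Pax2 span as a whole. All 9 unlisted candidate regions in it, regions 4 and 9 above included, had wild-type means of at most 29.96%, with a median of 10.4%. The other 7 lay within 15.1 kb of the gene start, before the first listed region. Differences over all 9 ran from -15.4 to -0.704 points. The highest mutant value was under the lowest wild-type value in 7 of the 9, against 94.3% of all candidate regions, and limma called 4 of the 9 lower at an adjusted p under 0.05, against 93.5%.

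Tbx5, a T-box gene on chromosome 5 (RefSeq span 119796514 to 119885220, plus strand), held 4 members, all of them listed. Among the listed members of the 3 genes, these had the widest range of levels. They lay in the last part of the gene, 51.5 to 77.5 kb from its start, and the mutant kept between 8.51% and 71.1% of the wild-type level. Averaged over the 4, the level was 21.6% ± 2.61 in mutant and 63.0% ± 5.80 in wild-type cells (mean ± SD of 3), a difference of -41.4 points. Mutant replicates averaged 19.5%, 20.8% and 24.5%, and wild-type replicates 65.9%, 66.8% and 56.3%.

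Tbx5 region 3 (chr5:119867271-119867859, 15 CpGs) had the largest difference of all 15 regions. Its wild-type replicates had 80.1%, 78.6% and 69.6% and its mutant replicates 14.1%, 10.4% and 22.1%, a difference of -60.6 points that was exceeded in 0.243% of all listed regions. Region 1 (chr5:119847899-119848068), a short stretch of 169 bp with 10 CpGs, had 67.3%, 64.8% and 48.0% in the wild type and 3.33%, 5.22% and 6.78% in the mutant, a difference of -54.9 points. It was the most CpG-dense of the listed members, at 5.92 CpGs per 100 bp, and the mutant was left with almost none of its methylation.

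Tbx5 regions 2 and 3 were 37 bp apart and differed in level. Region 2 (chr5:119866645-119867234, 18 CpGs) had 33.8%, 31.5% and 16.5% in the wild type and 1.24%, 1.59% and 5.71% in the mutant, a difference of -24.5 points. Its wild-type mean of 27.3% was among the lowest of the list, with 0.254% of listed regions below it, whereas that of region 3 was 76.1%. Region 4 (chr5:119873683-119874263, 13 CpGs) resembled the mild Pax2 regions instead, with 82.2%, 92.2% and 91.0% in the wild type and 59.3%, 66.1% and 63.4% in the mutant, a difference of -25.5 points.

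Wild-type replicate 3 stood below the other two wild-type replicates in Tbx5 regions 1, 2 and 3, by 16.8, 15.0 and 8.93 points against the lower of them. The wild-type SD of 10.5 points in region 1 and of 9.39 points in region 2 was exceeded in 0.550% and 0.985% of listed regions. In region 4 it was wild-type replicate 1 that was lowest. Over all listed regions wild-type replicate 3 had the highest mean of its group, 77.1%. Mutant replicate 3 was the highest mutant in regions 1, 2 and 3. It was also the highest over all listed regions, at 50.7% against 46.1% and 48.4% in mutant replicates 1 and 2. Without wild-type replicate 3 the mean difference at Tbx5 was -44.7 points, and no mutant value reached the lowest wild-type value in any of the 4 regions.

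**Figure D2:**
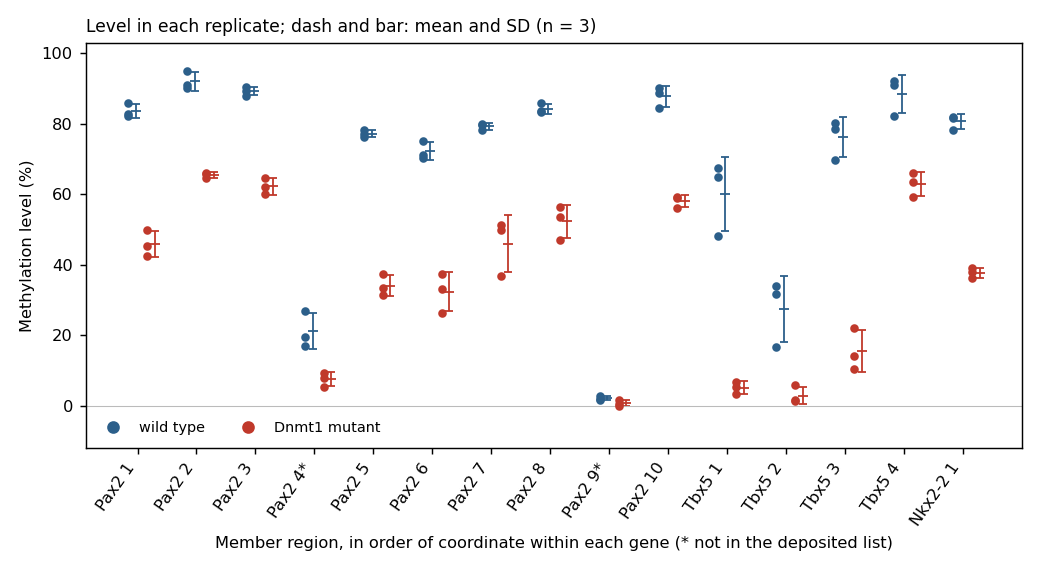
Methylation level (vertical axis, %) of the 15 regions in each replicate (points) with the mean and SD of each group beside them (dash and bar, n = 3), blue for wild type and red for Dnmt1 mutant. In Tbx5 regions 1 to 4, and in the low Pax2 region 4, 1 of the 3 wild-type points falls away from the other two.

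Farther toward its start, Tbx5 had 3 more listed regions inside its RefSeq span, 17.1 to 28.2 kb from the start, which the list assigned to 1700021F13Rik or Gm43050 and which are therefore not among the 15. Their mutant means were 40.8%, 42.5% and 48.5% against wild-type means of 78.3%, 79.3% and 82.1%. With these added, the mean difference over 7 regions was -39.0 points. In addition, 4 unlisted candidate regions within 11.3 kb of the Tbx5 start had wild-type means from 5.49% to 17.3% and mutant means from 2.31% to 8.67%. One of them (chr5:119807444-119808215) holds the Gm5563 window printed above, at 7.69% ± 0.734 in mutant and 14.4% ± 3.91 in wild-type cells (mean ± SD of 3). The remaining unlisted region in the span (chr5:119883043-119883279), 86.6 kb from the start, was highly methylated in both groups. It had 85.5% ± 3.45 in mutant and 92.3% ± 1.93 in wild-type cells (mean ± SD of 3), a difference of -6.76 points.

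Nkx2-2, a homeobox gene on chromosome 2 (RefSeq span 147176485 to 147195434, minus strand), had a single member (chr2:147175025-147175735, 10 CpGs). It lay past the 3′ end of the gene, 1811 bp from it in the authors' annotation and 750.0 bp in RefSeq. The wild-type replicates had 81.7%, 81.9% and 78.3% and the mutant replicates 39.1%, 37.8% and 36.2%, a difference of -42.9 points. Both groups were tight, and 5.71% of listed regions had a larger loss. At the other end of the gene, 2 unlisted regions lay within 1.60 kb of the start of the RefSeq span, at 147195434. They had wild-type means of 2.70% and 8.07% and mutant means of 0.848% and 4.59%. This is not the start whose window is printed above (chr2:147186353-147186652), which had no candidate region nearer than 6943 bp. No other candidate region fell inside the Nkx2-2 span.

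The distance limit left out 3 listed regions that the list also gave to Pax2. They lay 29880, 36233 and 42917 bp past its end, against 4755 bp for the farthest member. Their levels were 26.4% ± 5.47, 34.2% ± 4.55 and 24.3% ± 1.30 in mutant and 71.4% ± 1.12, 79.6% ± 1.60 and 74.5% ± 1.71 in wild-type cells (mean ± SD of 3). These differences, of -44.9, -45.4 and -50.3 points, were larger in size than that of any Pax2 region inside the limit.

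Set beside the whole list, the 13 listed members had a median difference of -33.3 points, against -26.1 points over all 35439 listed regions. The median was -32.6 points at Pax2 and -40.2 points at Tbx5. Median wild-type levels were alike, 80.6% and 80.3%, and median mutant levels were 45.8% and 52.1%. The members had a median of 13 CpGs over 589 bp, and all listed regions 12 CpGs over 720.0 bp. In the authors' deposited table, 8 of the 13 (61.5%) had a metilene q under 0.05, against 23.3% of all listed regions. The lowest q, 8e-09, was at Tbx5 region 3. Pax2 regions 3, 5, 6 and 7 and Tbx5 region 4 were above that limit. Since earlier results of these data were known when the genes were chosen, the shift of the members' median is a description of the choice.

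**Figure D3:**
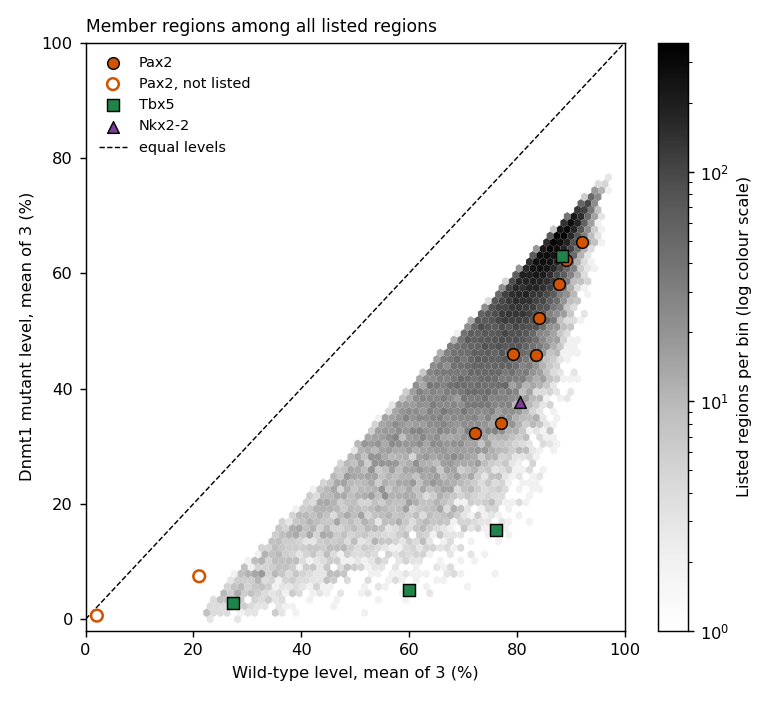
Mutant level (vertical axis, %) against wild-type level (horizontal axis, %), each the mean of 3 replicates, for all 35439 listed regions (grey, log colour scale) and the 15 members (symbols, open where unlisted). Tbx5 regions 1 and 3 sit at the lower edge of the cloud, with wild-type levels of 60.04% and 76.1%, while Pax2 runs from its dense upper part to its middle.

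The highest mutant value was under the lowest wild-type value in 15 of the 15 members, and the same held for 94.3% of all candidate regions. The reverse held in 0 members and in 0.0952% of all candidate regions. Limma, fitted over all candidate regions with Benjamini-Hochberg adjustment, called 14 of the 15 lower, where 93.5% of all candidate regions were called lower, and 0 higher, where 0.0485% were. The member without a call was Pax2 region 9 (limma adjusted p = 0.478), the one holding the 1700039E22Rik window. These shares are near the background and say nothing particular about the 3 genes.

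Compared with all candidate regions, regions at relatives of the 3 genes were more often of low level in the wild type and less often called. The 15 members are not a like set, since the rule chose most of them by their loss. At the relatives every candidate region was counted. Inside the 3 genes, limma called lower 4 of 9 unlisted regions at Pax2, 4 of 5 at Tbx5 and 0 of 2 at Nkx2-2. Listed regions inside the spans were called in 7 of 7 cases at Pax2 and 7 of 7 at Tbx5. The same was true of all 35439 listed regions, so these counts say nothing particular about the 2 genes. The relatives were 37 other genes of the Pax, T-box and Nkx families, chosen here and not taken from the authors' list. Of these, 36 had a candidate region in their RefSeq span or 5 kb to either side, Tbx22 being the exception. Of 214 such regions limma called 148 lower (69.2%) and 0 higher, below the 93.5% of all candidate regions. Of the 214, 41.6% had a wild-type level under 20%, as did 5.76% of all candidate regions. Among regions at 20% or more, a limit chosen after the values were seen, 122 of 125 were called lower at the relatives (97.6%), and 97.2% over all candidate regions. Below it, 26 of 89 were called lower at the relatives, and 32.7% over all.

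Within the Pax family, 70 of 98 regions were called lower, and 27 of 46 without Pax5, the B cell commitment factor. The largest differences were -50.3 points in Pax3, which acts in neural crest and muscle precursors, -48.1 points in Pax7, which marks muscle stem cells, and -43.1 points in Pax5. The Pax7 locus had 14 listed regions among 26, with a median difference over the listed ones of -34.3 points. The -43.1 points of Pax2 region 5 lay within this range. Pax6, Pax1 and Pax9 had candidate regions with wild-type levels of at most 14.5% only, and 0 listed regions.

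Among the T-box genes, 55 of 79 regions were called lower. The largest differences were -48.6 points in Tbx21, which directs type 1 helper T cells, -31.8 points in Tbx6, a factor of the paraxial mesoderm, and -30.9 points in Tbx4, the hindlimb relative of Tbx5. Tbx5 regions 1 and 3 exceeded all of these in size. Tbx3, the chromosomal neighbour of Tbx5, had 4 candidate regions and 0 listed ones, with wild-type levels from 4.07% to 28.2%. Among the Nkx genes 23 of 37 regions were called lower. The region with the largest difference in each gene differed by -39.5 points in Nkx6-3 and by -23.3 points in Nkx2-3, and the -42.9 points at Nkx2-2 exceeded both in size. Nkx2-4, on the same chromosome as Nkx2-2, had 1 candidate region, with a mean of 0.852% ± 0.170 in mutant and 12.96% ± 3.11 in wild-type cells (mean ± SD of 3).

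**Figure D4:**
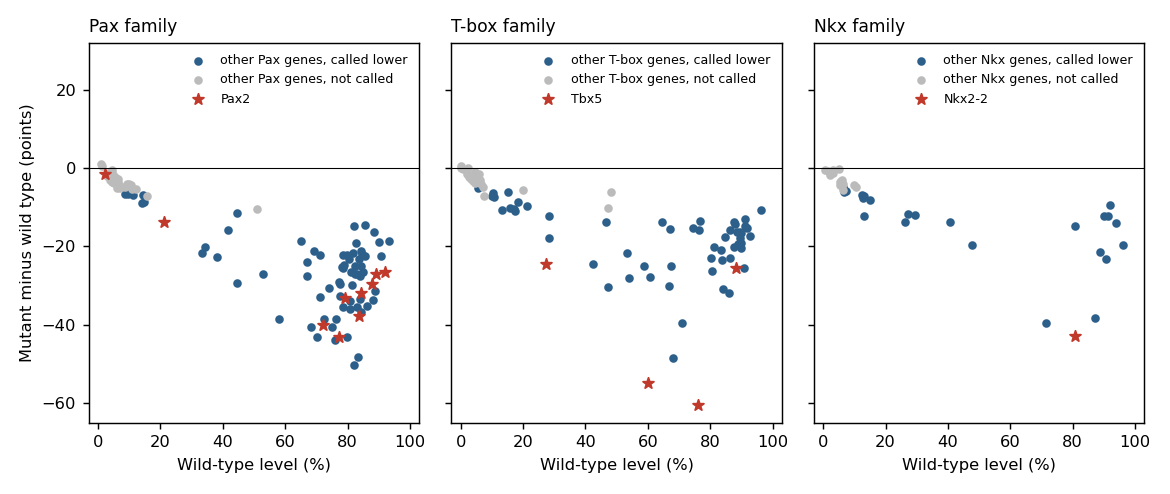
Difference between mutant and wild type (vertical axis, percentage points) against wild-type level (horizontal axis, %) for candidate regions at other genes of the Pax, T-box and Nkx families, blue where limma called the region lower and grey where it did not, with the 15 members as red stars. Grey points crowd at low wild-type levels, and the Tbx5 stars reach -60.6 points.

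Among 3027 other genes with at least 3 listed regions at the same distance limit, those with the most similar mean levels over the 6 columns were found by root mean square difference. Nearest to Pax2 were Ntm (1.29 points), Slc14a1 (1.46 points) and Zfp536 (1.48 points), with mutant means from 48.7% to 49.2%. Nearest to Tbx5 were Hmga1 (2.88 points), Nrtn (3.25 points) and Shd (3.37 points). Nearest to Nkx2-2, which rests on 1 region, were Irs1 (2.70 points), Grin1os (2.80 points) and Apc2 (2.93 points).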

How the data were processed

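Methylation levels of lin- bone marrow progenitors were taken from 1 table of 107115 candidate regions and the lists of hypomethylated and hypermethylated regions. The authors deposited the levels as a fraction, and here they were multiplied to percent and averaged over 3 replicate columns per genotype. Their difference between group means, as deposited, is a score (mutant minus wild type, in fractions). The deposited lists also give the metilene q-value, the adjusted p-value of a further unnamed test, the number of CpGs and the distance to the gene. Per the file names metilene was the region caller, and the listed regions had at least 10 CpGs and a loss of at least 20 points. Per the submitters' processing notes the reference was mm10. The sources used here name no aligner. Coordinates are printed as deposited, and whether they count from 0 or 1 is not stated. Coverage was not used here, so depth is unknown and precision rests on the spread of replicates.

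Columns were assigned to genotype by name. No 2 columns were alike, with a smallest median absolute difference of 2.44 points. Levels in percent of all candidate regions were fitted with limma 3.58.1 (R 4.3.3), checked on simulated data. P-values were adjusted by Benjamini-Hochberg over all regions, with a threshold of 0.05. Differences are mutant minus wild type. Same-numbered columns of the genotypes deviated together with correlations from 0.00490 to 0.0500 over regions, so numbers were not taken as pairs. Gene spans and promoters came from RefSeq GRCm38.p6, the assembly that mm10 names. Python 3.11.15, numpy 2.4.6, pandas 2.3.3 and matplotlib 3.10.9 were used. At Pax2 the 4 largest and 2 smallest differences and the region nearest the start were given by value, at each family up to 3 genes by the largest difference, and for each gene the 3 most similar genes. One result that this rule names is not reported here. Members and lists were chosen with earlier results of these data known.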

Additional observations from a re-analysis of the deposited data

How the results depend on the processing

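The mean difference kept its direction in all alternatives at Pax2, Tbx5 and Nkx2-2. At Pax2 (-33.6 points) it was -32.6 points with the median over regions, -31.5 points with only the 4 regions of metilene q under 0.05 and -28.4 points with the 2 unlisted regions included. At Tbx5 (-41.4 points) it was -57.7 points with the median over regions, which takes a value between unlike regions in each replicate, and -46.6 points with the 3 regions of q under 0.05. Leaving out each replicate gave -34.2 to -33.0 points at Pax2, -44.7 to -39.5 points at Tbx5 and -44.1 to -42.2 points at Nkx2-2. Weighting by CpGs, the authors' group means, distance limits of 2000 and 10000 bp and, chosen after seeing the data, all listed regions in the RefSeq span plus 5 kb moved these values by less than 1 SD. Of the 15 members, limma called 14 in each alternative other than the logit scale, which called 15, with Pax2 region 9 at an adjusted p of 0.0194. The count at family genes was 148, and 137 to 145 without 1 replicate, 174 with trend and robust options, 180 on the logit scale and 113 of 166 regions with the gene span alone. With the replicate number as a block, limma called 14 members and 150 family regions. Mutant columns each correlated best with the wild-type column of their own number, but wild-type replicate 2 did not, a hint from the data and not from the design. Depth is unknown and limits what can be said of regions near 0%, such as Pax2 region 9.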

Other observations

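Upstream of the 3 genes, outside the regions described, several nearby candidate regions also differed in level. Within 50 kb upstream of Pax2, 3 listed regions assigned to Gm26644 had mutant means of 59.3%, 16.5% and 20.3% against wild-type means of 85.0%, 57.8% and 57.8%. A region 15.6 kb upstream of Tbx5, assigned to 1700021F13Rik (chr5:119780561-119781192), had 37.9% ± 1.51 in mutant and 67.8% ± 4.27 in wild-type cells (mean ± SD of 3). Unlisted regions 11.7 and 40.8 kb upstream of Nkx2-2 differed less, with mutant means of 76.7% and 79.9% against wild-type means of 93.0% and 91.3%.

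A region 47.8 kb upstream of Tbx5 was higher in the mutant (chr5:119748356-119749142). Its mutant replicates had 47.96%, 37.6% and 51.3% and its wild-type replicates 35.1%, 20.5% and 22.5%, so the groups did not overlap, as in 0.0952% of all candidate regions in this direction. Limma called it higher (adjusted p = 0.00346), as it did 0.0485% of all candidate regions, and the authors' lists do not hold it. It was singled out after its values were seen.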
